A study of Mus musculus with 4 samples.

Results

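High-count barcodes are the droplets of this lymph node study that hold more than 20000 unique molecular identifiers (UMIs, each standing for 1 captured mRNA molecule) or more than 5000 genes, with under 10% of their UMIs from mitochondrially encoded genes. The study's own filter on cells takes them out. Of 34323 deposited barcodes, 33325 were under the mitochondrial limit, and 585 of these (1.76%) were above an upper limit. They were chosen by UMIs and genes alone, whatever they contain, so their depth and gene number are a description and not a finding. Wildtype C57BL/6 mice of the EV group received 100 µg of extracellular vesicles (EVs) from induced pluripotent stem cells (iPSCs) under the skin. Control mice received PBS according to the study, whereas the sample labels record no treatment. Draining lymph nodes were taken on day 5 by the series description, while the sample labels give 24 h. Each group had 2 biological replicates, 1 droplet-based 3′ single-cell library each, and the sources used here do not say how many animals or nodes went into a library, so that p-values measure only the spread between these 4 libraries. Control libraries 1 and 2 held 50749656 and 58100433 UMIs in all barcodes. EV libraries 1 and 2 were deeper, with 68116085 and 70418672 UMIs.

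The mRNA content of lymph node cells varies widely. Resting B and T cells are small, cells that grow and divide hold more mRNA, and plasma cells carry very large amounts of immunoglobulin mRNA. In a germinal centre, activated B cells divide, mutate their antibody genes and compete for help from T cells. A droplet that catches more than 1 cell holds the mRNA of each of them, and it is for such droplets that upper limits on UMIs and genes are commonly set.

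Numbers and depth come first. Control library 1 held 50 high-count barcodes, control library 2 held 83, EV library 1 held 218 and EV library 2 held 234, which were 0.610%, 1.04%, 2.60% and 2.67% of the barcodes under the mitochondrial limit. The share was higher in each EV library than in either control library, with a mean of 2.63% ± 0.0498 (SD, n = 2) against 0.825% ± 0.304 (SD, n = 2). With 2 libraries in each group, the smallest two-sided p of an exact permutation test is 0.33, which no share given here can go below. Of the 585 barcodes, 583 exceeded the UMI limit, 328 the gene limit and 326 both, and 2 exceeded the gene limit alone. They held 2.56% and 3.70% of the UMIs of the control libraries and 9.96% and 9.83% of those of the EV libraries. Their median depth was 22739 and 23495 UMIs in the control and 25271 and 25275.5 UMIs in the EV libraries, and the deepest barcode of each library held 77961, 51804, 112854 and 92771 UMIs. Barcodes within the limits had medians of 5502 and 6560 UMIs in control and 6639.5 and 6627.5 UMIs in EV libraries. The limits fell in a continuous range, with 170 barcodes between 20000 and 22000 UMIs and 238 between 18000 and 20000 UMIs. In EV library 2, for example, the nearest barcodes on either side of the UMI limit held 19939 and 20003 UMIs. No barcode over a limit was left out by the mitochondrial limit. The libraries shared between 12 and 26 barcode sequences with each other, and none of these was high-count in both.

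A fixed limit takes more barcodes from a more deeply sequenced library. The median depth of T cell barcodes, taken here as the gauge of depth, was 6568 and 7636 UMIs in the control and 8888 and 8222.5 UMIs in the EV libraries. When all libraries were thinned to the depth of control library 1, the high-count barcodes numbered 50 and 43 in the control and 94 and 123 in the EV libraries, or 0.610%, 0.539%, 1.12% and 1.40%. The groups still did not overlap, and the difference between the means shrank from 1.81 to 0.687 percentage points. How far the remaining difference rests on depth within other cell types was not tested.

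**Figure D1:**
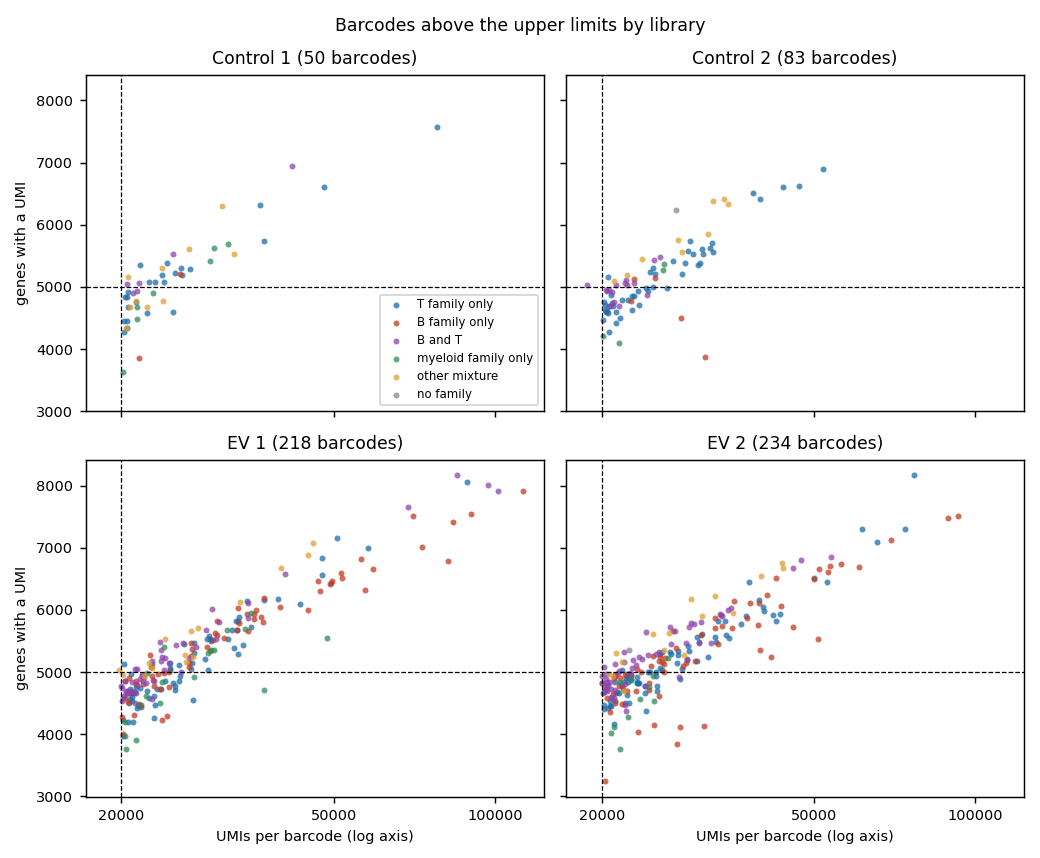
Each point is a high-count barcode, with its UMIs (horizontal, log axis) and its genes with a UMI (vertical), 1 panel per library. Dashed lines mark the limits of 20000 UMIs and 5000 genes, and colours give the class by marker genes. Over 60000 UMIs lie 10 B family, 5 T family and 4 B and T barcodes of the EV libraries, and 1 T family barcode of the control libraries.

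The barcodes were sorted into lineages by lists of marker genes. A barcode held a list when at least 3 of its markers had 2 or more UMIs. The B family was defined by the lists for B cells and plasma cells, the T family by those for T cells and NK cells, and the myeloid family by those for macrophages, monocytes, neutrophils and 3 kinds of dendritic cell. All but 2 of the 585 barcodes held at least 1 family. The T family alone was held by 223, the B family alone by 139, the myeloid family alone by 41, the B and T families together by 130, and other mixtures with the myeloid family by 50. No barcode held the list for neutrophils, fibroblastic stromal cells, endothelial cells or erythroid cells, and 0 of 585 allows a share of up to 0.513% (counting error only). High-count barcodes were thus no cell type, and 180 of them (30.8%) held more than 1 family.

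The mix differed between the groups. T family barcodes made up 50% and 57.8% of the high-count barcodes of the control libraries and 32.1% and 34.2% of those of the EV libraries. B family barcodes numbered 2 and 5 in the control and 64 and 68 in the EV libraries, a mean share of 5.01% ± 1.43 (SD, n = 2) against 29.2% ± 0.211 (SD, n = 2). The groups did not overlap in either share, and since the shares of a library sum to the whole, a rise of one lowers the other. Barcodes of the B and T families together made up 15.6% ± 5.15 (SD, n = 2) in control and 23.9% ± 1.31 (SD, n = 2) in EV libraries, also without overlap. The difference of 8.22 percentage points was 4.58 without control library 1 and 3.97 without the barcodes over the threshold of Scrublet, a tool that scores barcodes by their likeness to simulated sums of cells. Myeloid barcodes numbered 7 and 4 in the control and 19 and 11 in the EV libraries, and their shares overlapped. Seen from the lineages, the B family barcodes that were above the limits made up 0.0670% and 0.202% of all B family barcodes in the control and 1.31% and 1.56% in the EV libraries. For the T family these shares were 0.541% and 0.998% against 2.53% and 2.15%. With all libraries thinned by their T cell depth, the B family shares were 0.0670%, 0.121%, 0.758% and 1.01%, and the T family shares 0.541%, 0.563%, 1.09% and 1.21%, in control 1, control 2, EV 1 and EV 2. In both families the EV libraries remained above the control libraries. This thinning matched the median depth of T cell barcodes alone, and not that of other classes.

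**Figure D2:**
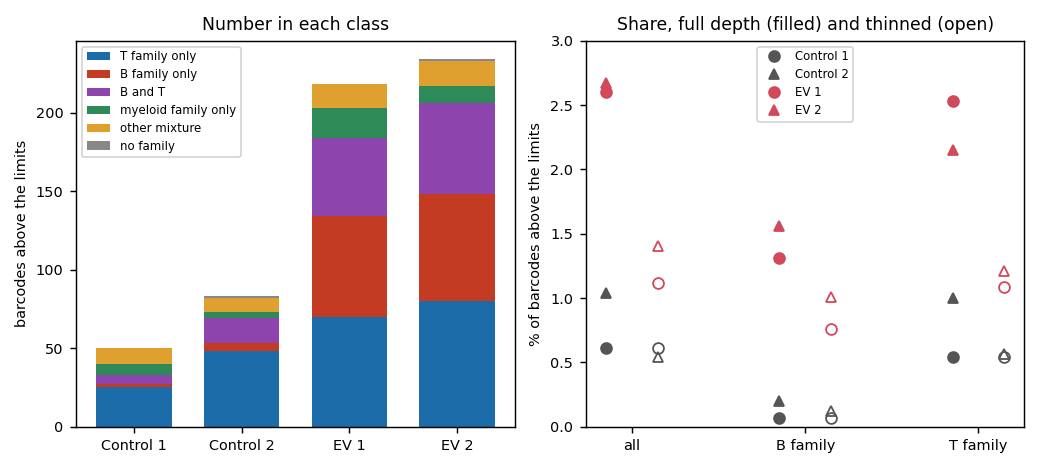
Left, the number of high-count barcodes of each class in each library (stacked bars). Right, the percentage of all barcodes, of B family barcodes and of T family barcodes that were above the limits, at full depth (filled) and with libraries thinned by T cell depth (open), 1 point per library. Thinning lowers the EV points, for example from 2.60% and 2.67% to 1.12% and 1.40% over all barcodes, and they stay above the control points.

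The genes that mark each lineage were counted next. Cd79a encodes a signalling chain of the B cell receptor and lies on chromosome 7 (24897381 to 24902197, GRCm38). It had a UMI in 22% and 28.9% of the high-count barcodes of the control and 63.3% and 62.0% of those of the EV libraries. Cd3e, a chain of the T cell receptor complex on chromosome 9 (44998740 to 45009627), had a UMI in 74% and 88.0% against 58.7% and 62.8%. Within the limits, too, the EV libraries had more B and fewer T cell barcodes, with a Cd79a UMI in 42.0% and 35.9% of the control and 64.6% and 56.3% of the EV barcodes, and a Cd3e UMI in 55.6% and 59.3% against 34.6% and 44.5%. At this depth, a lone UMI is weak evidence of a lineage: Cd79a had a UMI in 9.42% of the T family barcodes (median depth 24967 UMIs) and Cd3e in 0.719% of the B family barcodes (median depth 28054 UMIs). Jchain, which encodes the joining chain of secreted IgM and IgA, had a UMI in 6.00% and 4.82% of the control and 18.8% and 24.8% of the EV barcodes, and in 1 of 223 T family barcodes. Mki67, the gene of the proliferation marker Ki-67, had a UMI in 40% and 31.3% against 45.4% and 48.3%. For these 4 genes the groups did not overlap among high-count barcodes. Fscn1, an actin-bundling protein of migratory dendritic cells, had a UMI in 16.0% and 7.23% against 8.26% and 7.69%, which overlap. C1qa, a complement component made by macrophages, was rare, with a UMI in 2, 3, 5 and 4 barcodes in the order control 1, control 2, EV 1 and EV 2, and 1 barcode held 89.1% of its UMIs in EV library 1. Its share was 1.79% in T family barcodes, which should lack it, so a lone C1qa UMI was read as background.

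Both Cd79a and Cd3e were found in 154 of the 585 barcodes. The number was 6 and 19 in the control and 62 and 67 in the EV libraries, or 12.0%, 22.9%, 28.4% and 28.6%. With at least 2 UMIs of each gene it was 6, 14, 50 and 55. Within the limits, 4.97% and 4.22% of the control and 5.04% and 5.92% of the EV barcodes had a UMI of both genes. After every barcode was thinned to 5000 UMIs, which left out 5449 shallower control and 3503 shallower EV barcodes, both genes were seen in 8% and 9.64% of the control and 14.7% and 17.1% of the EV high-count barcodes. The thinned shares within the limits were 5.49%, 3.77%, 3.48% and 4.73%. After thinning, each EV library still exceeded either control library among high-count barcodes, whereas the groups overlapped within the limits.

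In barcodes of the B and T families together, the genes with the largest excess over the other high-count barcodes were Ighd, Cd55, Bank1, B3gnt5 and Gm31243, of which Ighd encodes the IgD heavy chain of naive B cells and Bank1 a B cell scaffold protein. These 5 genes were 3.12 to 3.85 times the level of the other barcodes in CPM (UMIs per 1000000 UMIs) with 5 CPM added. Bank1 is also a marker of the B cell list that chose this class, so its excess was built in. The median depth of the class was 22263.5 UMIs, and 858 further barcodes of the same class within the limits had a median of 13014 UMIs, beside 5250 UMIs for the B family and 7554 UMIs for the T family within the limits. Only 16.9% of them held the cycling list described next, against 71.9% of the B family and 39.5% of the T family barcodes above the limits. Scrublet put 91 of these 130 barcodes over its threshold, but 3 of 139 of the B family, 6 of 223 of the T family and 0 of 41 of the myeloid family. Of the 50 mixtures with the myeloid family, it called only 4. Over all high-count barcodes it called 12.0% and 20.5% in the control and 15.1% and 20.5% in the EV libraries, and within the limits between 1.80% and 3.49% in each library. Scrublet reads the same counts as the marker lists, so that both readings are not independent.

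**Figure D3:**
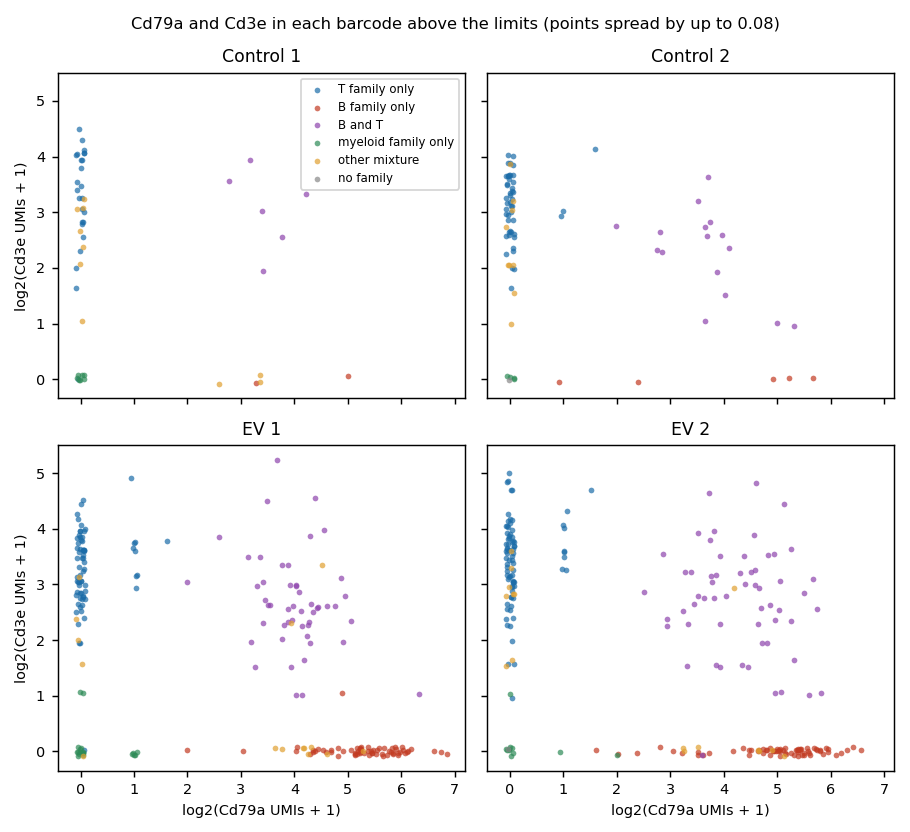
Cd79a (horizontal) and Cd3e (vertical) UMIs of each high-count barcode as log2(UMIs + 1), with points spread by up to 0.08, 1 panel per library. Most barcodes lie on an axis, and the cloud away from both axes is mostly the class that holds the B and T families, with 6, 16, 50 and 58 barcodes in control 1, control 2, EV 1 and EV 2.

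Mixtures with the myeloid family were 29 barcodes of T and myeloid, 18 of B and myeloid and 3 of all 3 families. Among the 29, the plasmacytoid dendritic cell list was held by 11, the conventional dendritic cell list by 9 and the migratory dendritic cell list by 8. Siglech, a lectin of plasmacytoid dendritic cells, had at least 2 UMIs in 10 of the 11, and Fscn1 in all 8 that held the migratory list. The B and myeloid barcodes most often held the monocyte list, 7 of 18. Each of these 7 had at least 2 UMIs of Lyz2, Ms4a6c and Csf1r. Chil3 and Fn1 reached 2 UMIs in 2 of the 7 each, and Cd14 in 0. These mixtures made up 15.4% ± 6.47 (SD, n = 2) of the control and 6.86% ± 0.0305 (SD, n = 2) of the EV high-count barcodes.

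Dividing cells were a large group among the high-count barcodes. The cycling list (Mki67, Top2a, Birc5, Ube2c, Ccnb2, Pclaf, Rrm2 and Tyms, genes of DNA synthesis and mitosis) was held by 218 of the 585 barcodes. The number was 15 and 21 in the control and 78 and 104 in the EV libraries, 27.7% ± 3.32 (SD, n = 2) against 40.1% ± 6.13 (SD, n = 2), without overlap. Their leading genes were Pclaf, Hist1h1b, Birc5, Mki67 and Ube2c, at 44.0 to 73.2 times the level of the other high-count barcodes (CPM, with 5 CPM added). All but Hist1h1b belong to the list that chose these barcodes, so their excess was built in. Cycling barcodes had a median of 31684.5 UMIs. Of all cycling barcodes under the mitochondrial limit, the upper limits took 35.7% and 38.2% in the control and 63.4% and 72.7% in the EV libraries, so that in the EV libraries most cycling barcodes were above a limit. After thinning by T cell depth the shares were 35.7%, 31.4%, 51.4% and 56.6%, still without overlap between the groups. Within the limits, 0.134% to 0.485% of the B family and 0.111% to 0.348% of the T family barcodes of a library held the list. A resting barcode with few UMIs has less chance of holding any list, and after thinning to 5000 UMIs with 1 UMI per marker the list was held by 32.0%, 21.7%, 33.0% and 40.2% above the limits and by 0.442%, 0.462%, 0.385% and 0.388% within them.

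Most B family barcodes of the EV libraries held markers of division. The cycling list was held by 45 of 64 and 52 of 68 B family barcodes of EV libraries 1 and 2, and by 2 of 2 and 1 of 5 in control libraries 1 and 2. The germinal centre B cell list (among its genes Bcl6, S1pr2, Mef2b, Rgs13 and Gcsam) was held by 2 and 1 high-count barcodes in the control and 34 and 43 in the EV libraries, or 2.60% ± 1.98 (SD, n = 2) against 17.0% ± 1.97 (SD, n = 2). The difference of 14.4 percentage points was 8.56 after thinning to 5000 UMIs and 22.6 after thinning by T cell depth. Of the 80 barcodes in all, 73 were of the B family alone, and 70 of these also held the cycling list. Their leading genes included Mybl1, Pdzd2, Gcsam and Nuggc, of which Gcsam belongs to the list that chose them. Of all barcodes that held the germinal centre list, the upper limits took 2 of 5 and 1 of 16 in the control and 34 of 47 and 43 of 61 in the EV libraries. Shallow barcodes have less chance of holding it. Thinned to 5000 UMIs, with 1 UMI per marker, 1, 1, 21 and 25 barcodes above the limits held it (control 1, control 2, EV 1, EV 2). Within the limits 4, 16, 14 and 21 did. After thinning by T cell depth, high-count germinal centre barcodes numbered 2, 1, 27 and 28. Another 33 B family barcodes held neither the germinal centre, the cycling nor the plasma cell list, and their genes with the largest excess over the cycling ones were Ighg3, Plaur, Ighd, Fcrl5 and S100a4. Of their Ighg3 UMIs, 1 barcode held 99.1%.

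B family levels above and within the limits were ranked by their ratio in the EV libraries alone. The control libraries, with 2 and 5 such barcodes above the limits, were left out of the ranking. Among the 10 genes with the lowest ratio were Cd55, Gpr183, Tsc22d3, Klf2, Ighd and S1pr1. Ighd stood at 193 and 160 CPM above the limits in EV libraries 1 and 2 and at 967 and 1043 CPM within them. Klf2, a transcription factor of quiescent lymphocytes, stood at 115 and 115 CPM above and at 589 and 683 CPM within. Gpr183 is a receptor that guides B cells to the outer follicle, and S1pr1 the receptor for exit from the node. Cd79a itself had a lower CPM above the limits, at 1178 and 1083 CPM against 2338 and 2248 CPM within. These ratios are a description, since the limits chose the barcodes.

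Plasma cell markers were held by 19 high-count barcodes, 1 and 2 in the control and 7 and 9 in the EV libraries (2.20% ± 0.290 against 3.53% ± 0.449, SD, n = 2 each, without overlap). Only 4 further barcodes under the mitochondrial limit held the list, so the upper limits took 19 of the 23 that held it. Shallow barcodes have less chance of holding it. After thinning to 5000 UMIs with 1 UMI per marker, 10 barcodes above and 7 within the limits held it. The median depth of the 19 barcodes was 49081 UMIs. After thinning to 5000 UMIs with 1 UMI per marker the direction turned, with 2.20% of the control and 1.54% of the EV barcodes. The 3 control barcodes drew 21.8%, 18.1% and 36.5% of their UMIs from immunoglobulin constant genes, with Ighm, Ighg2c and Ighg2b as their leading heavy chains and Igkc as the light chain. The EV barcodes ran from 0.499% to 24.7%, and 16 of 16 had a heavy chain that made up at least 63.1% of their heavy constant UMIs. Ighg1 was the leading heavy chain in 9 of the EV barcodes and in none of the control barcodes. The EV library 2 barcode with the most light chain held 9128 UMIs of Igkc, 3069 of Ighg1, 940 of Jchain and 68 of Mki67 among 50705 UMIs. The EV barcode with the lowest immunoglobulin share, in EV library 1, held 76 UMIs of Cd79a, 26 of Jchain and 1 of Cd3e among 101341 UMIs. Of the 16 EV barcodes, 4 also held the T family, with 1 to 7 UMIs of Cd3e. A B family barcode of EV library 2 that did not hold the plasma cell list had a larger immunoglobulin share, 42.9%.

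The leading heavy chain of the B family barcodes was Ighm in 2, 2, 43 and 49 barcodes (control 1, control 2, EV 1, EV 2) and Ighg1 in 0, 0, 15 and 15. Free immunoglobulin mRNA of plasma cells can enter other droplets, and T family barcodes held 0, 0, 0.496 and 1.68 CPM of Ighg1, against 0, 0, 846 and 3467 CPM in the B family. Ighm, pooled over the libraries, stood at 167 CPM in T family and 2335.5 CPM in B family barcodes.

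T family barcodes included dividing and non-dividing cells in every library. The cycling list was held by 40% and 37.5% of them in the control and 34.3% and 45.0% in the EV libraries, and the groups overlapped. Their leading genes over the other high-count barcodes were Xcl1, Ctla2a, Tesc, Itm2a and Ikzf2, of which Xcl1 is a chemokine of activated CD8 T cells and Ikzf2 the transcription factor Helios. Foxp3, the transcription factor of regulatory T cells, had at least 2 UMIs in 4 of 25, 7 of 48, 10 of 70 and 6 of 80 barcodes, which is 7.50% to 16.0%, against 1.89% to 2.59% within the limits, where barcodes are shallower. After thinning to 5000 UMIs and with 1 UMI it was 3.85%, 10.2%, 9.86% and 6.17% above against 2.51% to 3.33% within. Cd4 and Cd8a, the coreceptors of the helper and cytotoxic lineages, both had at least 2 UMIs in 2 of 25 and 8 of 48 in the control and 8 of 70 and 10 of 80 in the EV libraries, or 8% to 16.7%. Within the limits the share was 0.371% to 0.567%. After thinning to 5000 UMIs and with 1 UMI of each gene it was 3.85%, 10.2%, 7.04% and 7.41% above against 0.574% to 0.730% within. A B and T rule cannot see sums of T cells, and Scrublet called 6 of the 223 T family barcodes.

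Myeloid barcodes were a small and varied class. Of the 41, the conventional dendritic cell list was held by 19, the migratory dendritic cell list by 17, the monocyte list by 10 and the macrophage list by 8, and a barcode could hold several. Their leading genes were Ccl8, Cxcl9, Marco, Cd209b and Lyz1, of which Ccl8 and Cxcl9 are chemokines, Marco and Cd209b macrophage receptors and Lyz1 a lysozyme. Fscn1 belongs to a list that chose these barcodes and stood at 1013 CPM in them, against 35.6 CPM in the other high-count barcodes. Such levels are pooled over the 41 and can rest on few barcodes. C1qa, for example, stood at 110 CPM with a UMI in only 1 of the 41. The myeloid barcodes that held the migratory list numbered 1 and 2 in the control and 6 and 8 in the EV libraries.

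Gene levels of the high-count barcodes were compared between EV and control by summing raw UMIs per library. The quasi-likelihood test of edgeR with TMM normalization called 131 of 11772 genes (1.11%) at an adjusted p under 0.05, 110 higher and 21 lower in the EV libraries. Leaving out control library 1 or 2 gave 722 or 554 calls, and leaving out EV library 1 or 2 gave 40 or 143, while no gene of 19370 was called without a filter on low counts (1932 at an unadjusted p under 0.05). Of the genes tested, 48.1% had no overlap between the groups. A sum over all high-count barcodes mixes the lineages given above, so a shift in the number of barcodes of a lineage and a change of mRNA within them cannot be told apart. B cell genes rose. All 8 markers of the B cell list were called higher, with a median log2 fold change of 2.01, beside -0.00 over all genes tested. Cd79a stood at 97.4 and 159 CPM (TMM-normalised) in the control and at 570 and 575 CPM in the EV libraries (log2 fold change 2.15, SE 0.23, edgeR adjusted p = 0.016). Ms4a1, the gene of CD20, stood at 66.5 and 76.5 against 373 and 371 CPM (log2 fold change 2.37, SE 0.16, edgeR adjusted p = 0.0053). Bank1 had the smallest rise of the list, 1.09 (SE 0.16, edgeR adjusted p = 0.034), and its call was lost under 5 alternatives. All 8 had higher levels in both EV libraries than in both control libraries, as 24.7% of the genes tested had.

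Of 13 germinal centre genes listed, 7 were called higher, 6 did not pass the test and none was called lower (0.934% of all genes tested were called higher), and the median of the list was 2.26. Mybl1, Rgs13, S1pr2, Nuggc, Mef2b and Bcl6 were among the 7. Mybl1, a MYB-family transcription factor of germinal centre B cells, stood at 10.8 and 6.95 against 76.8 and 87.9 CPM (log2 fold change 3.27, SE 0.24, edgeR adjusted p = 0.0053). S1pr2, which keeps B cells inside the germinal centre, rose by 2.85 (SE 0.39, edgeR adjusted p = 0.027), and Bcl6, the transcription factor that defines the germinal centre, by 1.07 (SE 0.18, edgeR adjusted p = 0.049). The control levels of these genes rest on few barcodes, for Rgs13, a regulator of G-protein signalling in germinal centre B cells, on 3 of 133. The call of Bcl6 was lost under 5 alternatives.

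Among the 10 largest rises without overlap, 3 genes had no UMI in either control library. Ighg1, the IgG1 heavy chain, had 0 and 0 UMIs in the control and 1978 and 10174 in the EV libraries, from 30 and 48 barcodes, of which 1 held 64.7% and 30.2% of them. The lower EV library was at least 335-fold higher than 3 UMIs over the control group would be. Il4, the cytokine that drives the switch to IgG1, had 0, 0, 114 and 96 UMIs, from 13 barcodes in each EV library, of which 1 held 48.2% and 32.3%, at least 16.0-fold higher. These Il4 barcodes were of the T family in 6 and 8 cases and of the B and T families together in 4 and 5. Uchl1, a ubiquitin hydrolase, had 0, 0, 48 and 45 UMIs, at least 7.48-fold higher. For each of these genes, 0 of 133 control barcodes allows up to 2.26% of barcodes with a UMI, by counting error only, which does not limit the share of cells that express it. The others included Mybl1, the long non-coding RNA Gm2447, the interferon-induced Oasl1, Vpreb3, S1pr2 and the fatty acid receptor gene Ffar1. Of these 10 rises, Ighg1, Il4, Uchl1, Oasl1 and Ffar1 lay under the filter level of 2.25 CPM in both control libraries and passed the filter on low counts only through the EV libraries. Gm2447 reached it in both EV libraries and 1 control library. The calls of these 6 genes are given as no support. Vpreb3, a chaperone of the B cell receptor, stood at 17.0 and 14.4 against 104 and 127 CPM.

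The 10 largest falls were those of Rbfox1, Adam12, Klf4, 2610307P16Rik, Myo3b, Il18r1, Nebl, Itgae, Srgap3 and Dip2c. Rbfox1 reached the filter level in both control libraries and no EV library, and Adam12 in both control libraries and 1 EV library, so the calls of these 2 genes are given as no support either. The other 8 had log2 fold changes from -2.57 to -1.47, with Klf4 lowest and Dip2c highest. Several rest on a handful of barcodes. Rbfox1, an RNA-binding protein gene, had 23, 42, 3 and 1 UMIs, and 1 barcode held 69.6% and 64.3% of those of the control libraries. Il18r1 and Itgae were spread more widely. Il18r1, a chain of the IL-18 receptor, was found in 25 and 49 control and 61 and 63 EV barcodes and stood at 124 and 120 against 35.7 and 30.9 CPM (log2 fold change -1.87, SE 0.15, edgeR adjusted p = 0.0070). Itgae, the integrin chain CD103 of tissue-homing T cells and some dendritic cells, stood at 67.3 and 88.5 against 28.5 and 26.6 CPM (log2 fold change -1.51, SE 0.18, edgeR adjusted p = 0.018).

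T cell markers fell in none of 8 cases by the test, although 7 of 8 were lower in both EV libraries (background 23.4% lower without overlap) and their median was -0.44. Cd3e stood at 261 and 242 against 160 and 201 CPM (log2 fold change -0.48, SE 0.17, edgeR adjusted p = 0.24). Few genes of dividing cells passed the test, although many were higher in both EV libraries, 17 of 20 of DNA replication and 10 of 22 of mitosis (24.7% of all genes). Of the 20 only Rrm2, a subunit of ribonucleotide reductase, was called higher, with 64.2 and 53.8 against 113 and 145 CPM (log2 fold change 1.14, SE 0.19, edgeR adjusted p = 0.046). The Rrm2 call was lost under 6 alternatives. None of 22 mitosis genes was called, with a median of 0.53. Mki67 stood at 291 and 197 against 340 and 382 CPM (log2 fold change 0.57, SE 0.21, edgeR adjusted p = 0.25), without overlap.

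Jchain did not differ between the groups by the test in spite of its many EV barcodes. It had 653 and 1139 UMIs from 3 and 4 barcodes in the control and 2441 and 5414 UMIs from 41 and 58 barcodes in the EV libraries. A lone barcode held 98.6% and 75% of the control UMIs. The levels of 505, 528, 366 and 800 CPM overlapped (log2 fold change 0.17, SE 0.33, edgeR adjusted p = 0.85). Fscn1 stood at 342 and 78.3 against 72.7 and 78.7 CPM, where control library 1 lay far above the rest (log2 fold change -1.44, SE 0.57, edgeR adjusted p = 0.28). C1qa, with 2, 4, 129 and 5 UMIs, did not pass the filter on low counts and was not tested.

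Of the other lists, 2 of 17 tested genes of protein folding in the endoplasmic reticulum were called higher, where 0.934% of all genes were, and 13 of the 17 lay higher in both EV libraries (24.7% of all genes). The called genes were the chaperone gene Hsp90b1 (log2 fold change 1.02, SE 0.14, edgeR adjusted p = 0.027) and Creld2 (1.31, SE 0.20, edgeR adjusted p = 0.038). In EV library 1, 1 barcode held 45.6% of the UMIs of Creld2, and 1 held 28.6% of those of Hsp90b1. The calls of both genes were lost under 4 alternatives each. Among 14 tested interferon response genes, 2 were called and 8 lay higher without overlap. Isg15, a ubiquitin-like antiviral protein, rose by 1.78 (SE 0.21, edgeR adjusted p = 0.018). A lone barcode held 26.9% and 33.7% of its UMIs in EV libraries 1 and 2, and its call was lost under 3 alternatives. The other called gene was Oasl1, with 2, 3, 87 and 64 UMIs, which passed the filter on low counts only through the EV libraries. Of 10 class II pathway genes, 2 were called and 5 lay higher without overlap. H2-DMb2 and H2-Ob, which load peptides onto class II molecules or restrain that loading in B cells, rose by 1.53 and 1.30 (SE 0.21 and 0.16, edgeR adjusted p = 0.027 and 0.020). None of 14 heat shock genes was called, although 13 lay higher in both EV libraries, as did 24.7% of all genes tested. No gene was called in the lists for plasma cells, NK cells, macrophages, monocytes, dendritic cells, immunoglobulin light chains, the Mediator kinase module, ribosome biogenesis, dissociation early response or mitochondrially encoded genes. The endothelial list had 2 genes and the erythroid list 1 gene tested, none of which was called.

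**Figure D4:**
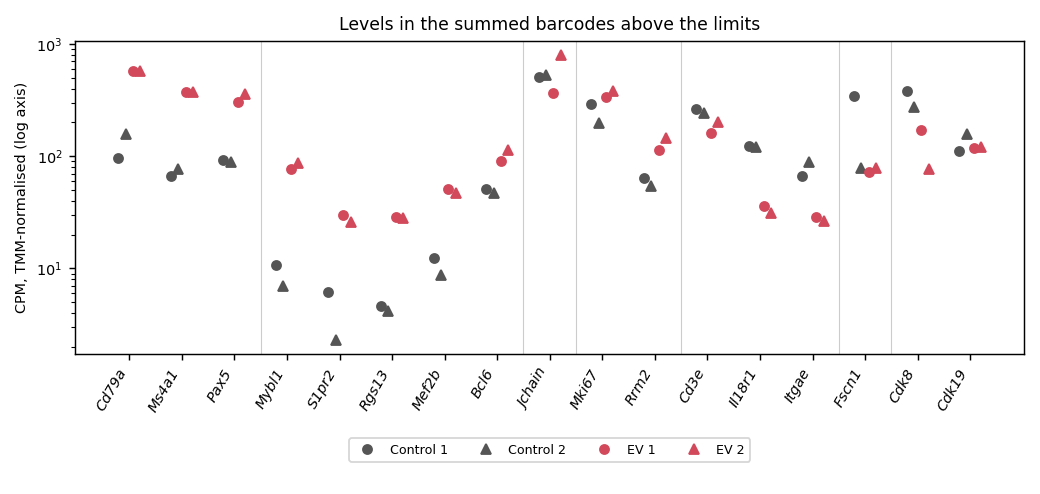
TMM-normalised CPM (log axis) of B cell, germinal centre, plasma, cycling, T cell, dendritic cell and Mediator kinase genes in the summed high-count barcodes, 1 point per library. EV points lie above control points for B cell and germinal centre genes, such as 76.8 and 87.9 against 10.8 and 6.95 CPM for Mybl1, and below them for Il18r1 and Itgae.

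Cdk8, a kinase of the Mediator complex, was measured in 131 of 133 control and 398 of 452 EV high-count barcodes. Its levels were 380 and 273 CPM in the control and 173 and 76.8 CPM in the EV libraries, lower in both EV libraries, and the log2 fold change of -1.38 (SE 0.37) did not pass the test (edgeR adjusted p = 0.16). Its paralog Cdk19 stood at 111, 159, 119 and 122 CPM and overlapped (log2 fold change -0.18, SE 0.19, edgeR adjusted p = 0.70). The rRNA-like transcript Gm42418 lay at 7749 and 7186 CPM in the control and 4239 and 886 CPM in the EV libraries, so that EV library 2 stood apart in both genes. In the list of abundant nuclear or rRNA-like transcripts that holds both, 7 of 8 genes were lower in both EV libraries, as were 23.4% of all genes tested, and none was called. The part of these transcripts in the Cdk8 difference was not tested.

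Within the T family alone, no gene was called in the main setting. The T family had 25, 48, 70 and 80 barcodes, and edgeR called 0 of 9391 genes (0.0%), with 549 at an unadjusted p under 0.05 and 7 called by DESeq2. No overlap between the groups was seen for 34.7% of the 9391 genes. Without a filter on low counts, 125 of 16486 genes were called, and with a replicate block 53 of 9391. Il4 and St6galnac3 were chosen for the lowest adjusted p. Il4 had 0, 0, 89 and 60 UMIs and entered the test only through the EV libraries. St6galnac3, a sialyltransferase gene, stood at 244 and 237 against 98.9 and 99.1 CPM (log2 fold change -1.28, SE 0.17, edgeR adjusted p = 0.071). Mki67 stood at 299 and 303 against 323 and 391 CPM (log2 fold change 0.25, SE 0.17, edgeR adjusted p = 0.95), and Cdk8 at 374 and 260 against 200 and 75 CPM (log2 fold change -1.20, SE 0.36, edgeR adjusted p = 0.67). Itgae, which fell over all high-count barcodes, stood at 96.2 and 109 against 39.0 and 43.2 CPM in the T family (log2 fold change -1.32, SE 0.20, edgeR adjusted p = 0.099). Foxp3 stood at 23.7 and 19.0 against 44.1 and 22.9 CPM and did not pass the test (edgeR adjusted p = 0.91). The B family, with 2 and 5 control barcodes, and the cycling barcodes, with 15 in control library 1, did not reach the minimum of 20 barcodes in those control libraries and were not tested on their own.

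Levels of T family barcodes above and within the limits are set side by side as a description, since the limits chose them. Mki67 stood at 299 and 299 CPM in the control and 317 and 389 CPM in the EV libraries above the limits, and at 6.92 and 4.91 against 1.67 and 2.76 CPM within them. T family barcodes that held the cycling list numbered 16 and 14 in the control and 3 and 10 in the EV libraries within the limits, and 10 and 18 against 24 and 36 above them. The limits are fixed while the EV libraries are deeper, and the part of depth in these levels and numbers was not tested.

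**Figure D5:**
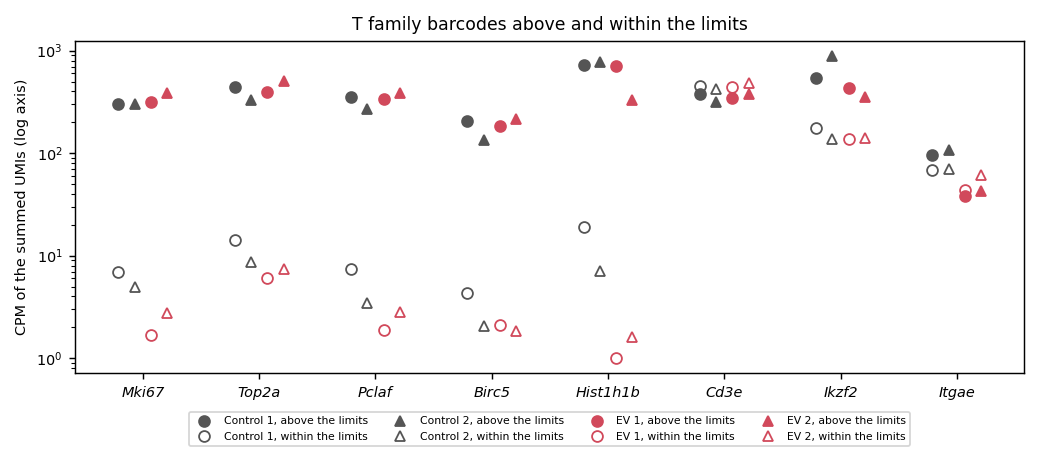
CPM (log axis) of cycling genes, Cd3e, Ikzf2 and Itgae in the summed T family barcodes above (filled) and within (open) the limits, 1 point per library. Mki67 lies at 299 to 389 CPM above the limits and at 1.67 to 6.92 CPM within them, and Cd3e lies at 316 to 377 CPM above and 423 to 486 CPM within.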

How the data were processed

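Lymph node cells of 2 control and 2 EV libraries were measured by droplet sequencing. The authors deposited raw UMI counts of 32285 genes per barcode, made with Cell Ranger 7.1.0 on mm10 and before their filter of cells. Gene positions are from GENCODE annotation of GRCm38. High-count barcodes were taken by the limits named above. Families needed 3 markers with 2 UMIs each. No doublets were removed in the main setting. UMIs were summed per library and compared by edgeR 4.0.16 (glmQLFit and glmQLFTest, TMM, filterByExpr, Benjamini-Hochberg, two-sided, adjusted p under 0.05) in R 4.3.3, after the scripts were tested on simulated data. The SE of an edgeR log2 fold change is its absolute value divided by the square root of the quasi-likelihood F statistic. Shares were compared by exact permutation tests. Thinning was random with a fixed seed. Other tools were DESeq2 1.42.0, Python 3.11.15, scanpy 1.11.5, numpy 2.4.6, scipy 1.17.1 and pandas 2.3.3. Intervals and floors cover counting error only.

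Named genes were Cd79a, Cd3e, Jchain, Mki67, C1qa, Fscn1, Cdk8 and Cdk19, the 10 largest called rises and falls without overlap, called members of the gene lists and the 5 leading genes of each class (at least 50 CPM). The members, lists and rules were chosen with earlier results of these data known. Alternatives were DESeq2, no filter on low counts, DESeq2 size factors, a replicate block, thinning, Scrublet (expected rate 6%), other limits, other library sizes, stricter markers and leaving out each library. Results for 1 gene are not reported here.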

Additional observations from a re-analysis of the deposited data

How the results depend on the processing

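The difference between EV and control libraries in the share of high-count barcodes, 1.81 percentage points, was 1.06 for the gene limit alone, 0.687 after thinning by T cell depth and 1.52 without the barcodes over the Scrublet threshold. Leaving out 1 library gave 1.59 to 2.02. The B family share differed by 24.2 points, and by 29.0 for the gene limit alone, 22 at a mitochondrial limit of 5%, 32.1 after that thinning and 28.7 without Scrublet barcodes (23.2 to 25.2 without 1 library). The B and T share differed by 8.22 points, and by 3.97 without Scrublet barcodes (4.58 to 11.9). The T family share differed by -20.8 points (-24.7 to -16.9). The cycling share differed by 12.5 points, and by 28.0 after that thinning (8.13 to 16.8). The plasma cell share differed by 1.32 points, and by 5.83 for the gene limit alone, 3.52 after that thinning, 0.865 with 3 UMIs per marker and -0.662, a reversal, after thinning to 5000 UMIs (1.01 to 1.64). The causes were not tested.

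Over all high-count barcodes, 131 genes were called, 232 by DESeq2, 0 of 19370 without a filter on low counts (1932 at an unadjusted p under 0.05), 43 after thinning, 722 and 554 without control library 1 or 2, 40 and 143 without EV library 1 or 2, and 160 without mixtures, an alternative chosen after seeing the data. In fits without a library, the lone sample of a group is assumed to vary like the others. For the T family, 7 genes were called by DESeq2, 125 without a filter, 2 after thinning, 3 without Scrublet barcodes, 11 without cycling barcodes (chosen after seeing the data) and 3 to 47 without 1 library. The sample labels do not say whether replicate numbers pair the libraries. Correlations of same-numbered libraries were 0.097 over all barcodes and -0.034 in the T family, which cannot settle this with 2 libraries per group. A replicate block gave 295 and 53 calls. The planned test of whether the EV effect differed between B family barcodes above and within the limits, and the same in the T family, are not reported, since the limits that chose the barcodes set that split and the control libraries held 2 and 5 B family barcodes above it.

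Among the named genes, the direction turned for some that were not called. Jchain was -0.11 after thinning and -0.51 to 0.63 without 1 library, lowest without EV library 2. Cdk19 was 0.14 after thinning and -0.40 to 0.13 without 1 library, highest without control library 2. In the T family, Cd3e was -0.079 after thinning and -0.037 to 0.19 without 1 library, and Cdk19 was -0.0050 to 0.69 without 1 library. Of 749 values of named genes under the alternatives, 606 kept direction and side of the threshold, 106 lost the call, 30 gained it and 7 turned direction. Losses were 38 without a filter on low counts, 22 without EV library 1, 19 after thinning and 10 without Scrublet barcodes. Rrm2 and Dip2c lost their call under 6 alternatives each, and Bcl6, Bank1, Oasl1 and Ffar1 under 5. The tests planned for the B family and for cycling barcodes were not run, since control libraries held fewer than 20 such barcodes (both for the B family, library 1 for cycling barcodes). Depth limits genes that rest on a few control barcodes.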
